A study of Mus musculus with 24 samples.

Results

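The comparison described here sets bone marrow hematopoietic stem and progenitor cells (HSPCs) of mice given doxorubicin against those of untreated mice, with both genotypes pooled. It holds 8 of the 24 libraries of the series, 4 after doxorubicin and 4 untreated, and was chosen by treatment label alone, with genotype as a covariate. The mice were C57BL6/J and either WT or Srcap mutant, and each of the 4 groups had 2 libraries. Srcap encodes the ATPase of a remodelling complex that loads H2A.Z, a variant histone, into chromatin. The mutant allele is not described in the labels, and in the file headers its libraries carry the abbreviation het. The treated groups are WT and Srcap mutant HSPCs taken 12 hours after doxorubicin, which the labels mark as IP. The untreated groups are WT and Srcap mutant HSPCs labelled germline with no treatment, and no time is given for them. The protocol names 30000 sorted HSPCs per sample, and the header names call them LSK, the lineage-negative, Sca-1 and Kit positive fraction. Whether the 2 libraries of a group came from different mice is not stated, so p-values measure the spread between these libraries, which may be technical.

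Doxorubicin is an anthracycline that traps topoisomerase II on DNA and leaves double-strand breaks. Broken DNA activates the kinases ATM and ATR, which stabilise p53, and p53 then switches on genes for cell cycle arrest, apoptosis, repair and its own control. HSPCs divide to supply all blood lineages, and loss of these cells limits the use of the drug. MYC drives growth of dividing progenitors, in large part by raising the production of ribosomes.

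The libraries held 35635255 to 59810048 counts each. Kit (351.5 to 614 counts per 1000000, CPM), Cd34 (688 to 1124 CPM) and Flt3 (651 to 862 CPM), markers of HSPCs, were present in all 8 libraries. WT untreated replicate 1 stood apart: genes of neutrophils and granulocytes took 3.02% of its counts and 0.0880% to 0.131% of those in the other 7 libraries. S100a9, a neutrophil calcium-binding protein, was at 9234 CPM in that library and at 19.1 to 149.6 CPM in the others. Its erythroid Hba-a1 was also the highest, at 41.4 CPM against 0.139 to 7.46 CPM. Results are therefore given with and without that library. CPM values are scaled by the trimmed mean of M values (TMM) and are not per length, so they are compared between libraries and not between genes.

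**Figure D1:**
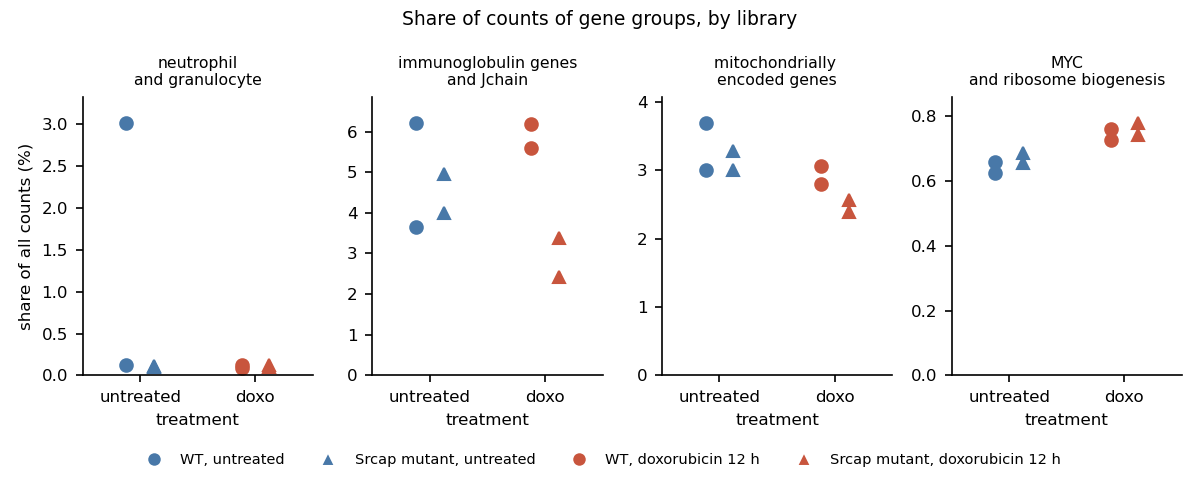
Share of all counts (%, y axis from 0) in 4 gene groups for each of the 8 libraries, by treatment (x axis). Circles are WT and triangles Srcap mutant libraries. WT untreated replicate 1 is at 3.02% for neutrophil and granulocyte genes and the other 7 are at or under 0.131%, while the MYC and ribosome biogenesis genes are at 0.726% or more in all 4 doxorubicin libraries and at 0.686% or less in all 4 untreated ones.

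Few genes passed the test at 12 hours in the fit reported here, and their number depended on the method. Of 16475 genes tested by edgeR's quasi-likelihood test, 9 rose (0.0546%) and 4 fell (0.0243%) at a Benjamini-Hochberg adjusted p under 0.05. The genes that rose were Als2cl, Pim1, Mrc2, Arntl, Muc13, Tspan13, Myc, Ccng1 and Mdn1, and those that fell were Ighv1-20, mt-Rnr2, Vcam1 and Gm19590. The same libraries gave 90 higher and 90 lower with DESeq2, 33 and 16 with voom quality weights, and 188 and 477 in edgeR with no count filter. In bulk RNA, fewer cells of a type and less RNA per cell cannot be told apart. At an unadjusted p under 0.05, 752 genes were higher (4.56%) and 815 lower (4.95%). All 4 doxorubicin libraries were above all 4 untreated ones for 400 genes (2.43%) and below them for 308 (1.87%). Without WT untreated replicate 1, 8 genes rose (0.0464%) and 8 fell (0.0464%) of 17253 tested, among them 6 of the 9 and all 4 of the genes above. Leaving out 1 library at a time gave between 5 genes higher and 1 lower, without WT doxorubicin replicate 1, and 22 higher and 22 lower, without mutant doxorubicin replicate 2.

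**Figure D2:**
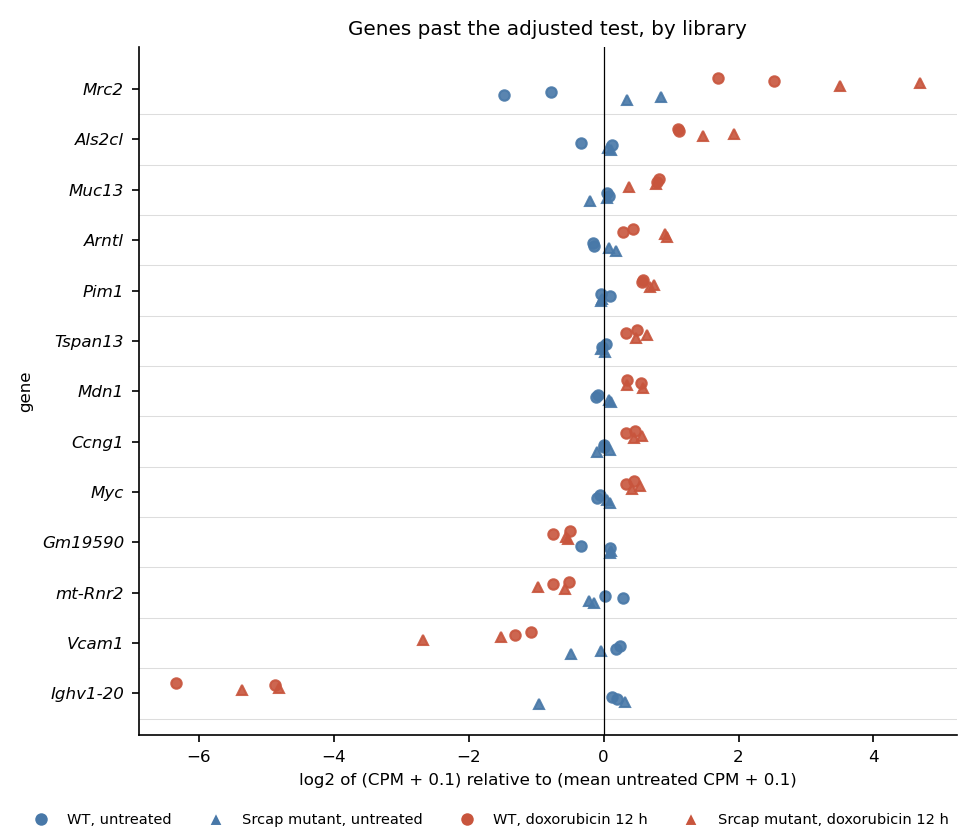
Level of each of the 13 genes past the adjusted test in each library, as the log2 of its CPM plus 0.1 over the mean untreated CPM plus 0.1 (x axis), with 1 row per gene. Circles are WT, triangles Srcap mutant, blue untreated and red doxorubicin. For every gene shown the red points and the blue points occupy separate ranges, widest apart for Mrc2 and Ighv1-20.

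The p53 pathway was represented among the called genes by Ccng1. This gene, on the minus strand of chromosome 11 (40639379 to 40646138, GRCm39), encodes cyclin G1, a p53 target that recruits a phosphatase to MDM2. Ccng1 was at 124.5, 124.8, 132.7 and 116.1 CPM in the untreated libraries, in the order WT 1, WT 2, mutant 1, mutant 2, and at 171.5, 156, 185 and 170.0 CPM after doxorubicin in the same order, which is used for all values below. All 4 treated libraries lay above all 4 untreated ones. The fold was 1.37 (log2 0.45 ± 0.077 SE, adjusted p = 0.039 in edgeR's quasi-likelihood test). Without WT untreated replicate 1 the log2 change was 0.46 and the adjusted p 0.0525, which misses the threshold. The call held in 1 of the 8 fits that each left out 1 library, the fit without mutant doxorubicin replicate 2.

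Other p53 targets had larger fitted changes and did not pass. Cdkn1a encodes p21, the kinase inhibitor through which p53 halts the cell cycle. Its untreated libraries were at 23.2, 17.9, 27.4 and 38.5 CPM, and its doxorubicin libraries at 35.5, 36.1, 61.6 and 43.7 CPM. The groups overlapped only through untreated mutant replicate 2, which lay above both treated WT libraries. The log2 difference was 0.74 ± 0.139 (adjusted p = 0.0871 in edgeR), and 0.80 without WT untreated replicate 1 (adjusted p = 0.0525). Phlda3, an inhibitor of AKT signalling, was at 2.41, 3.39, 3.43 and 4.08 CPM untreated and at 5.69, 6.13, 8.60 and 7.69 CPM after doxorubicin, with no overlap (log2 1.07 ± 0.225, adjusted p = 0.106 in edgeR). Zmat3, an RNA-binding protein that acts in splicing, had no overlap either (5.45 to 8.999 CPM against 11.2 to 18.5 CPM, log2 0.95 ± 0.2, adjusted p = 0.106 in edgeR). The same held for Aen, a nuclease of apoptosis (log2 0.48 ± 0.105), and for Eda2r, a death-domain receptor (log2 1.47 ± 0.389).

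The remaining p53 targets were spread to both sides. Slc19a2, Tnfrsf10b, Bid and Tigar also had separate ranges with the treated libraries higher, and none passed the adjusted test. Bax, the pore-forming effector of apoptosis, differed by log2 0.50 ± 0.181, with WT doxorubicin replicate 1 (22.8 CPM) inside the untreated range. Bbc3, which encodes PUMA, differed by 0.56 ± 0.313 and Plk2 by 1.02 ± 0.382. Mdm2, the ubiquitin ligase that degrades p53 and is itself a p53 target, was at 73.6 to 83.5 CPM untreated and 66.9 to 90.8 CPM after doxorubicin (log2 -0.04 ± 0.090). Psrc1, a microtubule-binding protein, was at 15.9, 16.85, 19.04 and 19.9 CPM untreated and at 18.1, 17.8, 33.2 and 30.4 CPM after doxorubicin, so that the treated mutant libraries stood above the rest. Ddb2, a sensor of DNA damage in nucleotide excision repair, was lower in WT (log2 -0.54 ± 0.172) and slightly higher in mutants (0.19 ± 0.171). Neither Psrc1 (unadjusted p = 0.0255) nor Ddb2 (unadjusted p = 0.00921) passed edgeR's adjusted test for a difference of response between genotypes. Gadd45a, a stress sensor of growth arrest, was highest in WT untreated replicate 1 at 26.1 CPM and between 6.10 and 10.2 CPM elsewhere.

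Over the whole list of p53 targets, 53 of 54 genes were tested. Of these 34 were higher (64.2%), against 46.6% of all genes tested, and the median log2 change was 0.09 against -0.02 over all genes. At an unadjusted p under 0.05, 16 were higher and 3 lower, and for 9 all treated libraries lay above all untreated ones, beside backgrounds of 4.56%, 4.95% and 2.43%. The adjusted test called 1, Ccng1. By role the median was 0.42 for the 11 tested arrest genes, 0.17 for the 11 apoptosis genes, 0.07 for the 8 genes of repair and nucleotide supply and 0.03 for the 25 genes of p53 control and signalling, some genes counting under more than 1 role. Taken by genotype the median log2 change was 0.06 (WT) and 0.18 (mutants), and it was 0.10 without WT untreated replicate 1 and 0.14 without WT untreated replicate 2.

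**Figure D3:**
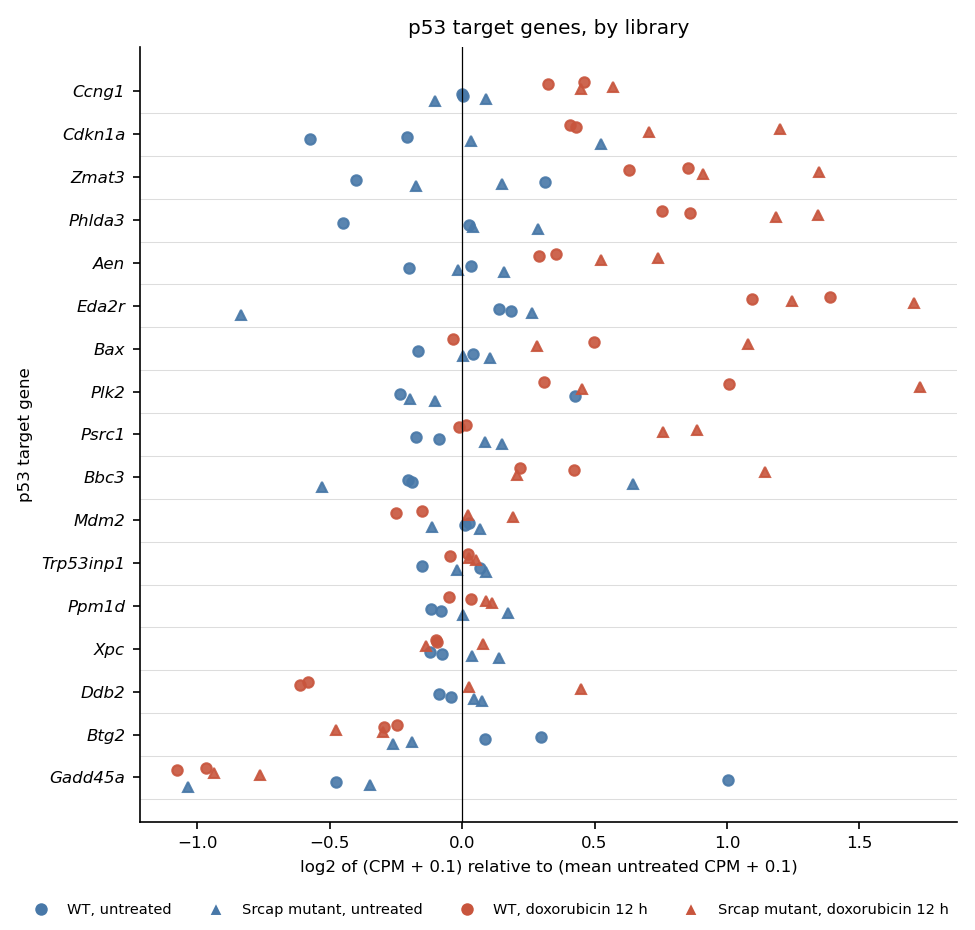
Level of 17 p53 target genes in each library, as the log2 of CPM plus 0.1 over the mean untreated CPM plus 0.1 (x axis). Circles are WT, triangles Srcap mutant, blue untreated and red doxorubicin. Ccng1, Zmat3, Phlda3, Aen and Eda2r show separate ranges, Cdkn1a overlaps through 1 untreated mutant library, and Mdm2, Trp53inp1, Ppm1d and Xpc lie around 0.

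The promoters of Ccng1 and Cdkn1a are shown because they belong to the called p53 target and to the best known one. They come from RefSeq on GRCm38.p6 and run from 250 bases before to 50 after the transcription start. Capitals mark matches to the p53 half-site consensus, searched on both strands. Ccng1 lies at chr11:40755237-40755536 on the minus strand, and the first Cdkn1a promoter at chr17:29090729-29091028 on the plus strand.
Ccng1: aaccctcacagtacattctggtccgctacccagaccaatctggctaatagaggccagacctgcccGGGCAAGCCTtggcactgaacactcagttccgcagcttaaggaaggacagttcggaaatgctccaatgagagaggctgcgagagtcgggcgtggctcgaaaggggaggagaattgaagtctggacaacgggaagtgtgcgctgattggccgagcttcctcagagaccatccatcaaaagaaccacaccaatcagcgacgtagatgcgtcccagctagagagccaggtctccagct
Cdkn1a: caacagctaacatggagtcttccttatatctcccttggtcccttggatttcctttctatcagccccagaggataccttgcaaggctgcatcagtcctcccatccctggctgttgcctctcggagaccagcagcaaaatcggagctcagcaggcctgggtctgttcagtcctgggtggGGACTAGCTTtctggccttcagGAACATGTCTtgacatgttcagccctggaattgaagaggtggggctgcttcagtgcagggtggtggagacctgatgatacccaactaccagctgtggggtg
The match in Ccng1 starts 185 bases before the transcription start, and those in Cdkn1a 73 and 51 bases before it. A second Cdkn1a promoter in the table held no match. Of the 42 p53 targets with a promoter in the table, 12 held a match (28.6%), against 906 of the 11106 tested genes with one (8.16%). The share was as high or higher in the lists of sterol synthesis (4 of 14) and CDK inhibitors (2 of 4). Of the 7 called genes with a promoter, 2 held a match (28.6%), Ccng1 and Pim1, and Pim1 is not on the p53 list. A match is a description of letters, and binding was not measured.

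Doxorubicin's own target genes did not pass the test. Top2a, the topoisomerase II of dividing cells, was at 692 to 993 CPM untreated and 910 to 1012 CPM after doxorubicin (log2 0.23 ± 0.094). Top2b, its isoform in resting cells, differed by 0.13 ± 0.082. Of the 18 tested genes of the break checkpoint 17 were higher (94.4%, against 46.6% of all genes), with a median of 0.07. Of the 12 end joining genes on the same list 6 were higher, with a median of 0.01. None of either was called, against 0.0546% called higher and 0.0243% called lower of all genes. For the 35 homologous recombination genes the median was also 0.07, or 0.03 without mutant untreated replicate 1 and 0.11 without WT doxorubicin replicate 2, and edgeR called 0, with 0 at an unadjusted p under 0.05. Srcap itself was at 8.47 to 13.5 CPM untreated and 9.12 to 11.5 CPM after doxorubicin (log2 0.01 ± 0.163). The counts do not show the allele, so Srcap does not check the genotype labels.

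Als2cl had the smallest adjusted p of all genes. This gene, on chromosome 9 (110708938 to 110729598, GRCm39, plus strand), encodes a protein related to the guanine nucleotide exchange factor alsin. It was at 13.2, 18.2, 17.4 and 18.1 CPM in the untreated libraries and at 36.1, 36.45, 64.5 and 46.9 CPM after doxorubicin. The lowest treated library was well above the highest untreated one. The fold was 2.69 (log2 1.43 ± 0.142, adjusted p = 0.000812 in edgeR), with log2 changes of 1.21 in WT and 1.65 in mutants. The gene passed in all 16 other settings tried.

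Mrc2 had the largest log2 change of the 9 genes that rose. It encodes the collagen-binding endocytic receptor Endo180 and lies on chromosome 11 (105183469 to 105241965, GRCm39, plus strand). Its untreated libraries held 4, 1, 29 and 13 counts (0.109, 0.0280, 0.543 and 0.353 CPM) and its treated ones 38, 78, 481 and 246 counts (1.06, 1.97, 9.13 and 3.98 CPM). The mutant libraries were higher than the WT ones both untreated and treated, and no treated library overlapped an untreated one. The log2 change was 4.06 ± 0.475 (adjusted p = 0.00211 in edgeR), 4.41 in WT and 3.85 in mutants.

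Pim1 encodes a serine/threonine kinase of survival and growth signalling and lies on chromosome 17 (29709727 to 29715086, GRCm39, plus strand). It was at 183.1, 201.8, 184.9 and 182.4 CPM untreated and at 281.9, 277.6, 314 and 303.8 CPM after doxorubicin. The 2 ranges were narrow and separate. The fold was 1.56 (log2 0.64 ± 0.075, adjusted p = 0.00211 in edgeR). Muc13, a transmembrane mucin on chromosome 16 (33614407 to 33640304, GRCm39, plus strand), was at 121.9, 125.1, 122.6 and 102.6 CPM untreated and at 208.8, 205.1, 202.8 and 153.6 CPM after doxorubicin. Mutant replicate 2 was the lowest library on both sides, and the treatments did not overlap (fold 1.63, adjusted p = 0.00478 in edgeR). Tspan13, a tetraspanin on chromosome 12 (36064556 to 36092499, GRCm39, minus strand), was at 343 to 362 CPM untreated and 444 to 551 CPM after doxorubicin, without overlap (log2 0.49 ± 0.078, adjusted p = 0.0269 in edgeR). The call of Tspan13 was lost without WT untreated replicate 2, either untreated mutant library, WT doxorubicin replicate 1 or mutant doxorubicin replicate 1.

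Myc rose, and most genes of ribosome production lay higher with it. Myc, on chromosome 15 (61857240 to 61862223, GRCm39, plus strand), was at 209.9, 202.6, 225.2 and 231.1 CPM untreated and at 295.6, 273.5, 314.6 and 290.0 CPM after doxorubicin. The treated libraries were all above the untreated ones, with a fold of 1.35 (log2 0.44 ± 0.071, adjusted p = 0.0301 in edgeR). Mdn1, the AAA ATPase midasin that remodels the precursor of the large ribosomal subunit, lies on chromosome 4 (32657119 to 32775217, GRCm39, plus strand). It was at 152, 149.5, 170.4 and 173.4 CPM untreated and at 205.6, 237.3, 205.7 and 241.5 CPM after doxorubicin, again without overlap (log2 0.47 ± 0.081, adjusted p = 0.0481 in edgeR). Without WT untreated replicate 1 the changes were 0.44 for Myc and 0.45 for Mdn1, with adjusted p of 0.0525 and 0.0784, so neither call held. Of the 8 fits that each left out 1 library, the call held for Myc only without mutant doxorubicin replicate 2 and for Mdn1 only without mutant doxorubicin replicate 1.

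Of the 35 genes of the MYC and ribosome biogenesis list, which holds Myc but not Mdn1, 34 were higher (97.1%), against 46.6% of all genes. Their median log2 change was 0.20, against 0.18 for WT, 0.21 for mutants and 0.23 without WT untreated replicate 1. At an unadjusted p under 0.05, 21 were higher and 1 lower, and 14 had all treated libraries above all untreated ones, beside backgrounds of 4.56%, 4.95% and 2.43%. Only Myc passed the adjusted test. The next by p were Utp20, of the small subunit processome (log2 0.40 ± 0.078, adjusted p = 0.0871 in edgeR), Rrp12, of ribosome export (0.57 ± 0.116, adjusted p = 0.102 in edgeR), and Cad, the first enzyme of pyrimidine synthesis (0.50 ± 0.105, adjusted p = 0.106 in edgeR). The nucleolar RNA helicase Ddx21 (0.34), the pseudouridine synthase Dkc1 (0.30) and the spermidine synthase Srm (0.38) also had separate ranges. Mycn was the 1 gene with a lower value (log2 -0.25 ± 0.109). The summed share of the list was 0.658%, 0.626%, 0.654% and 0.686% of counts untreated and 0.759%, 0.726%, 0.780% and 0.742% after doxorubicin.

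The genes of the cytosolic ribosomal proteins lay to the other side. Of 73 tested, 65 were lower, with a median log2 change of -0.09, which was -0.04 without WT untreated replicate 2. At an unadjusted p under 0.05, 8 were lower and 0 higher (4.95% and 4.56% of all genes), and edgeR's adjusted test called 0. Their summed share overlapped between treatments (5.72% to 6.87% of counts untreated, 5.76% to 6.68% after doxorubicin).

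The promoters of Mdn1 and Pim1 are shown with the E-box, the core sequence that MYC and the clock proteins bind, because they held it. Of the 7 called genes with a promoter, only these 2 did. Neither gene is in the MYC and ribosome biogenesis list. Capitals mark CACGTG, which reads the same on both strands. The Pim1 sequence also holds a match to the p53 half-site, gggcaagtct, which is left in lower case. Mdn1 lies at chr4:32656869-32657168 and the second of the 2 Pim1 promoters at chr17:29492835-29493134, both on the plus strand of GRCm38.p6 from RefSeq.
Mdn1: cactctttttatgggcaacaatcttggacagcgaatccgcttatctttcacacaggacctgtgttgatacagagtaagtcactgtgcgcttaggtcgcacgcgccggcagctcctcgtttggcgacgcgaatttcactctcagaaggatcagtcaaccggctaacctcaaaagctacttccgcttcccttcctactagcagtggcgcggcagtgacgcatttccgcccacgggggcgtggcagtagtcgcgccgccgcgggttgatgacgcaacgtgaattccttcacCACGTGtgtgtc
Pim1: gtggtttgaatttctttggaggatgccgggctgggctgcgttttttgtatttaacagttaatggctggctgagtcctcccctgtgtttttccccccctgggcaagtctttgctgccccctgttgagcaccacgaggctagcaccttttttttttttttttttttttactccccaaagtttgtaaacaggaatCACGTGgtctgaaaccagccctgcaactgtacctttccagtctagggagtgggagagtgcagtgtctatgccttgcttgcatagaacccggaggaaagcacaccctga
The match starts 38 bases after the start in Mdn1 and 58 bases before it in Pim1, and the first Pim1 promoter held none. Of the 28 MYC and ribosome biogenesis genes with a promoter, 8 held the E-box (28.6%), against 11.5% of the tested genes with one. The share was the same for excision and mismatch repair (8 of 28) and for sterol synthesis (4 of 14). It was higher for the clock list (5 of 17) and the glucocorticoid response (5 of 16). The E-box and the clock motif below were chosen after seeing the data. No motif searched here can lie wholly inside another.

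Genes of mitosis were mostly higher by small amounts. Of 36 tested genes of the G2 and M phases 34 were higher, with a median log2 change of 0.21. By genotype it was 0.14 (WT) and 0.23 (mutants), and it was 0.25 without WT untreated replicate 1. Leaving out mutant untreated replicate 1 gave 0.11 and leaving out mutant untreated replicate 2 gave 0.28. At an unadjusted p under 0.05, 13 were higher and 0 lower (4.56% and 4.95% of all genes), and edgeR's adjusted test called 0. Of these genes 0 had treated libraries all above the untreated ones, against 2.43% of all genes. Cenpf, a kinetochore protein, was at 93.9, 95.7, 100.8 and 135.9 CPM untreated and at 121.3, 131.5, 135.7 and 166.3 CPM after doxorubicin (log2 0.38 ± 0.096, adjusted p = 0.194 in edgeR). Untreated mutant replicate 2 was above 3 of the 4 treated libraries. Ccnb2, the mitotic cyclin B2, differed by 0.24 ± 0.075. Among 53 genes of DNA replication and S phase 37 were higher, with a median of 0.08 (0.05 without mutant untreated replicate 1), and Ccne1, cyclin E1, differed by 0.45 ± 0.142.

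Of 19 tested heat shock chaperones 18 were higher, with a median log2 change of 0.15, and 8 passed the unadjusted threshold, all higher, against 4.56% of all genes. For 6 the treated libraries lay above the untreated ones, against 2.43% of all genes. Hspa5, the chaperone BiP of the endoplasmic reticulum, was at 572, 631, 610 and 604 CPM untreated and at 769, 767, 713 and 756 CPM after doxorubicin (log2 0.31 ± 0.072, adjusted p = 0.141 in edgeR). Its groups did not overlap. Hspa8, the constitutive cytosolic HSP70, ranged from 1213 to 1284 CPM untreated and from 1414 to 1601 CPM after doxorubicin (log2 0.27 ± 0.075). Of 30 genes of the integrated stress and unfolded protein responses 24 were higher, with a median of 0.12 (0.20 for WT and 0.05 for mutants alone). The lipoprotein receptor Vldlr, listed there as an ATF4 target, had 45.4 to 94.6 CPM untreated and 103 to 158 CPM after doxorubicin (log2 0.79 ± 0.162, adjusted p = 0.191 in edgeR).

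Interferon keeps HSPCs responsive to infection and can drive them out of rest. Of 42 tested genes of the interferon response 32 were lower, with a median log2 change of -0.25. At an unadjusted p under 0.05, 15 were lower and 2 higher, and for 5 all treated libraries lay below all untreated ones, beside backgrounds of 4.95%, 4.56% and 1.87%. None passed the adjusted test. Irf7, the transcription factor that amplifies type I interferon, was at 50.8, 39.9, 40.9 and 39.9 CPM untreated and at 26.2, 28.4, 27.8 and 32.0 CPM after doxorubicin. The ranges were separate (log2 -0.58 ± 0.113, adjusted p = 0.0871 in edgeR). Rtp4 (-0.54), Ifi27 (-0.42), Isg15 (-0.49) and Dhx58 (-0.41) also had separate ranges. Irf8, a factor of monocyte and dendritic cell fate, went the other way (log2 0.36 ± 0.092). Median values were -0.21 (WT), -0.18 (mutants) and -0.19 without WT untreated replicate 1. The summed share of counts overlapped (0.413% to 0.438% untreated, 0.395% to 0.439% after doxorubicin), with the abundant Ly6e at a log2 difference of 0.15.

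Immediate early genes, which respond within minutes to signals and to tissue handling, were mostly lower. Their medians in the 2 genotypes were unequal, and that difference was not tested. Of 25 tested 22 were lower, with a median of -0.34, against -0.73 for WT and -0.07 for mutants alone. Myc, the 1 member that was called, is one of the 3 that were higher. Egr1, a zinc finger factor, was at 32.4, 19.1, 19.1 and 13.3 CPM untreated and at 13.25, 12.7, 10.04 and 12.6 CPM after doxorubicin, so that the ranges all but touched. Its log2 difference was -0.75 ± 0.189, and -0.53 without WT untreated replicate 1, which had the highest level. Fos reached 62.2 CPM in that library and lay between 8.95 and 18.2 CPM in the other 7. The median of the list without that library was -0.24.

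Arntl, the clock gene that encodes BMAL1, rose. BMAL1 pairs with CLOCK to drive the Per, Cry and Rev-erb genes, and Rev-erb proteins in turn repress Arntl. It lies on chromosome 7 (112806672 to 112913333, GRCm39, plus strand) and was at 48.7, 49.1, 57.5 and 62.1 CPM untreated and at 73.8, 66.6, 102.4 and 104 CPM after doxorubicin. Mutants were above WT within each treatment, and the treatments did not overlap (fold 1.57, log2 0.65 ± 0.084, adjusted p = 0.00478 in edgeR). Nr1d1, which encodes REV-ERB alpha, was at 4.74 to 5.82 CPM untreated and 7.04 to 9.81 CPM after doxorubicin (log2 0.56 ± 0.206, adjusted p = 0.403 in edgeR). Both the activator and its repressor thus had separate ranges with the treated libraries higher. No collection time is given for the untreated libraries. A difference in the hour of collection therefore cannot be told apart from doxorubicin, and it was not tested. Per1 (log2 -0.08 ± 0.153), Per2 (-0.18 ± 0.144), Dbp (-0.19 ± 0.153), Cry1 (0.27 ± 0.131) and Nr1d2 (-0.18 ± 0.087) did not pass the adjusted test. Of the 21 clock genes 8 were higher, with a median of -0.13 (-0.07 without mutant untreated replicate 1).

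The first Arntl promoter is shown because Arntl is the called clock gene. This promoter lies at chr7:113207215-113207514 on the plus strand of GRCm38.p6 (RefSeq). Capitals mark the letters TNGGTCA, searched on both strands. They are a loose form of the RORE core, part of the element that ROR and REV-ERB proteins bind. N stands for any base, while the core itself has A or G there, so a match need not be that element. The stretches marked below have T and C at that place, so neither is the core itself.
Arntl: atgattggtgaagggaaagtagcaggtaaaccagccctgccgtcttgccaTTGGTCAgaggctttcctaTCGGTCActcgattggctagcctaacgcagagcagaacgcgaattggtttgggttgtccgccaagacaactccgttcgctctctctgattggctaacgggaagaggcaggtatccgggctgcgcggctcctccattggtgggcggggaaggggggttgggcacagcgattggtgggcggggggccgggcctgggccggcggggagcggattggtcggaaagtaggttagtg
Matches start 200 and 181 bases before the transcription start. They were also in a second, overlapping promoter, which held 1 more, TAGGTCA, with A at N. Of 17 clock genes with a promoter 5 held these letters (29.4%), against 11.4% of the tested genes with one. The letters were also held by 3 of 9 genes of iron uptake and storage (33.3%). In the BCL2 family 4 of 14 held them (28.6%).

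Of 45 genes of hematopoietic stem cell identity 34 were lower, with a median log2 change of -0.13, which was -0.05 in WT and -0.22 in mutants. It was -0.15 without WT untreated replicate 1 and -0.04 without mutant untreated replicate 1. Hoxa9, a homeobox factor of self-renewal, differed by -0.33 ± 0.094 and Procr, the endothelial protein C receptor EPCR, by -0.37 ± 0.124. Gfi1b, a repressor of stem cell expansion, was at 11.0 to 16.8 CPM untreated and at 19.7 to 24.3 CPM after doxorubicin (log2 0.61 ± 0.149, adjusted p = 0.177 in edgeR). None of the 45 passed the adjusted test. Of 23 genes of early lymphoid priming 15 were higher, with a median of 0.15, or 0.08 without mutant untreated replicate 1. Dntt, the terminal transferase of lymphoid progenitors, was at 1618 to 2714 CPM untreated and 2358 to 3668 CPM after doxorubicin, with overlap (log2 0.47 ± 0.117). Selp, the P-selectin of platelets and endothelium, had separate ranges (3.79 to 6.996 CPM against 8.91 to 14.0 CPM, log2 1.08 ± 0.221, adjusted p = 0.105 in edgeR).

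**Figure D4:**
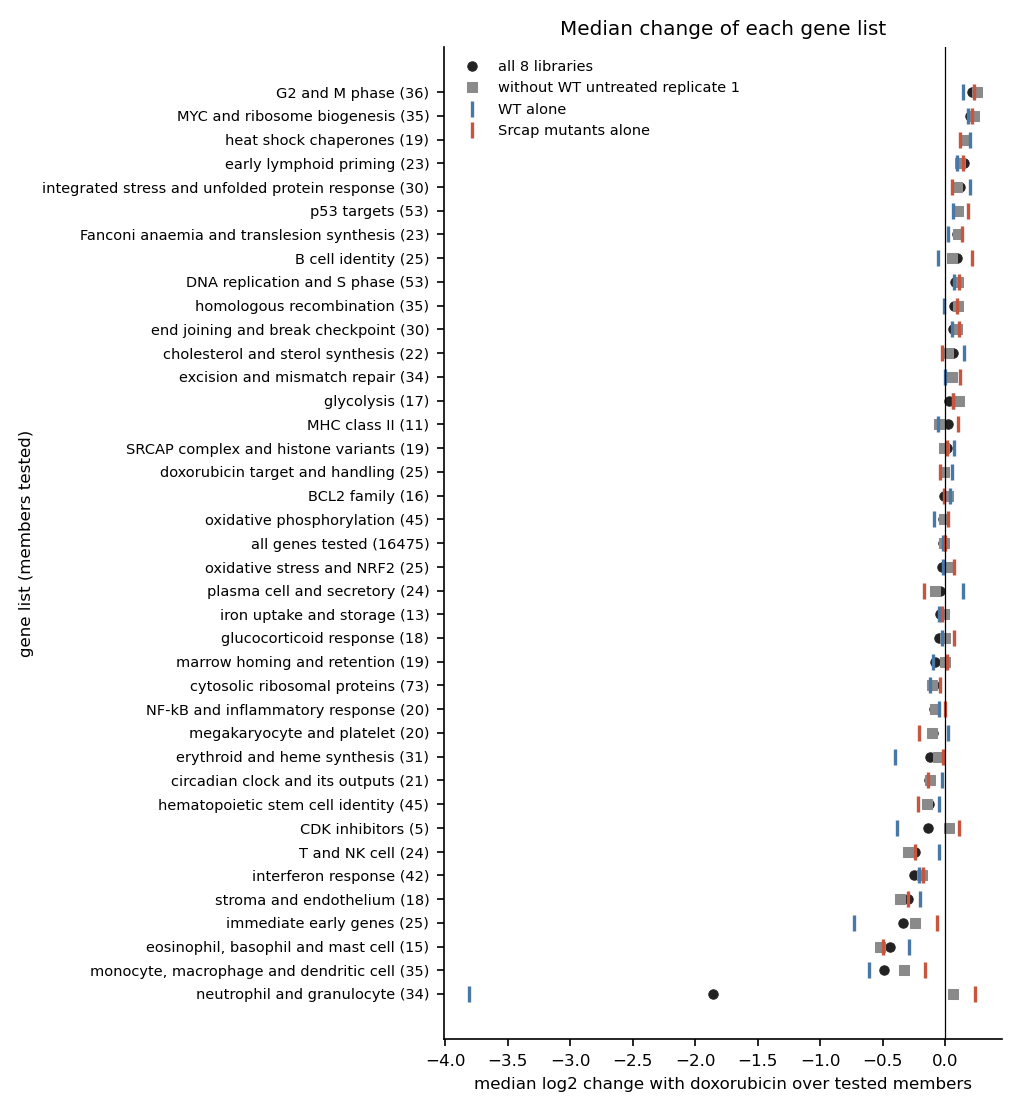
Median log2 change with doxorubicin over the tested members of each gene list (x axis), with the number of members tested beside the list's name (y axis). Black circles use all 8 libraries, grey squares leave out WT untreated replicate 1, and blue and red bars give WT and Srcap mutants alone. The neutrophil list moves from -1.86 to 0.06 without that library, while the MYC and ribosome biogenesis list lies between 0.18 and 0.23 in all 4.

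Vcam1 fell. It encodes the adhesion molecule that binds the integrin VLA-4, and in marrow it is carried by stroma, endothelium and resident macrophages as well as some HSPCs. It lies on chromosome 3 (115903598 to 115923337, GRCm39, minus strand) and was at 25.2, 24.3, 20.7 and 15.2 CPM untreated and at 10.1, 8.57, 7.36 and 3.25 CPM after doxorubicin. Every treated library was below every untreated one (log2 -1.58 ± 0.227, adjusted p = 0.0255 in edgeR). The call was lost without WT untreated replicate 2, mutant untreated replicate 1 or either treated WT library, with log2 changes between -1.81 and -1.36 over the 8 fits that left out 1 library. Of 24 monocyte and macrophage genes tested, Vcam1 among them, 21 were lower, 11 of them at an unadjusted p under 0.05 (background 4.95%), with a median of -0.66, and of -0.37 without WT untreated replicate 1. Without that library 17 were lower and 7 higher, with 9 lower and 4 higher at an unadjusted p under 0.05. C1qa, a complement subunit made by macrophages, was at 3.67 to 5.59 CPM untreated and 1.67 to 2.18 CPM after doxorubicin, and Axl, a receptor of dying cells, was at 15.5 to 25.9 against 8.10 to 16.8 CPM. Adgre1, the macrophage antigen F4/80, was at 10.4, 3.93, 2.64 and 2.74 CPM untreated and at 2.06, 1.11, 1.56 and 0.598 CPM after doxorubicin. Csf1r, the receptor for the macrophage growth factor CSF1, was at 56.8 CPM in WT untreated replicate 1, at 9.92, 12.0 and 11.1 CPM in the other untreated libraries and at 20.55, 17.1, 23.7 and 16.1 CPM after doxorubicin. Among the other 7 libraries it was thus higher in every treated one, unlike C1qa, Axl and Adgre1. No macrophage marker of the cell type set was at 0 in any library. Cxcl12, the stromal chemokine, was at 20.3, 29.7, 22.4 and 8.61 CPM untreated and at 10.7, 13.6, 4.90 and 5.11 CPM after doxorubicin (log2 -1.33 ± 0.302, adjusted p = 0.221 in edgeR). Of 18 genes of stroma and endothelium 14 were lower, with a median of -0.30 that was -0.08 without WT untreated replicate 2. The summed share of the whole monocyte, macrophage and dendritic cell list was 0.160% to 0.216% of counts untreated and 0.1495% to 0.1675% after doxorubicin, with overlap, and that of stroma and endothelium 0.0298% to 0.03355% against 0.0259% to 0.03275%. A set of 10 resident macrophage markers, which includes Vcam1 and was chosen with earlier results known, took 0.0098%, 0.00978%, 0.00822% and 0.00808% of counts untreated and 0.00656%, 0.00525%, 0.00487% and 0.00293% after doxorubicin. The ranges of the set did not overlap, but the fall of Vcam1 is itself part of that of the set. C1qa and Adgre1 also had separate ranges. The ranges of Axl, C1qb, Cd163, Mrc1, Spic and Cd5l overlapped between treatments. Their log2 differences were all negative, between -0.98 ± 0.398 (Cd5l) and -0.18 ± 0.243 (Cd163). The part of the macrophage markers in the fall of Vcam1 was not tested.

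Slc40a1, the iron exporter ferroportin of macrophages and erythroid cells, had separate ranges too (14.1 to 46.3 CPM untreated, 6.74 to 11.9 CPM after doxorubicin, log2 -1.28 ± 0.278, adjusted p = 0.207 in edgeR). The neutrophil list depended on 1 library. Its median log2 change was -1.86 over 34 tested genes with all libraries, and 0.06 without WT untreated replicate 1. In mutants, where that library plays no part, it was 0.24.

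The other genes that fell were mt-Rnr2, Ighv1-20 and Gm19590. mt-Rnr2, the 16S ribosomal RNA of the mitochondrion (chromosome M, 1094 to 2675), was at 591, 708, 503 and 525 CPM untreated and at 407, 346, 298 and 390 CPM after doxorubicin, without overlap (log2 -0.68 ± 0.1, adjusted p = 0.0146 in edgeR). Its call was lost without WT untreated replicate 2 or either treated WT library. The neighbouring mt-Rnr1, named after its values were seen, had separate ranges as well (log2 -0.37 ± 0.094, adjusted p = 0.194 in edgeR). All 10 mitochondrially encoded subunit genes tested were lower, at a median log2 change of -0.28, and 8 were past the unadjusted threshold (background 4.95%). The share of all mitochondrially encoded genes was 2.999%, 3.69%, 3.27% and 2.999% of counts untreated and 3.07%, 2.79%, 2.39% and 2.56% after doxorubicin, which overlapped (exact permutation p = 0.0857, two-sided, and 0.514 adjusted over 12 shares). The smallest p that this 4 against 4 test allows is 0.0286. The 35 nuclear genes of oxidative phosphorylation had a median of -0.01.

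Ighv1-20, a variable segment of the immunoglobulin heavy chain (chromosome 12, 114687392 to 114687825, GRCm39, minus strand), held 323, 328, 535 and 150 counts untreated and 0, 7, 10 and 6 counts after doxorubicin (log2 -6.03 ± 0.626, adjusted p = 0.00723 in edgeR). Its call was lost without WT doxorubicin replicate 2. Segments of this family resemble each other, so how reads were shared between them is uncertain. Immunoglobulin genes and Jchain, which mark B and plasma cells, made up 3.66%, 6.22%, 4.95% and 3.99% of counts untreated and 6.184%, 5.6%, 3.385% and 2.43% after doxorubicin, with wide overlap (exact permutation p = 0.80, two-sided). Gm19590, a long noncoding RNA on chromosome 5 (75993695 to 75996305, GRCm39, minus strand), was at 102.4, 137, 138.2 and 137.3 CPM untreated and at 91.4, 76.8, 87.9 and 89.7 CPM after doxorubicin (log2 -0.57 ± 0.094, adjusted p = 0.0301 in edgeR). Of the 8 fits that left out 1 library, the call of Gm19590 held in 2, without WT untreated replicate 1 and without mutant doxorubicin replicate 2.

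Leaving out WT untreated replicate 1 lost Myc, Ccng1 and Mdn1 and gave 6 other calls. Fcmr (log2 -1.25) and Ms4a1 (-1.0), both of mature B cells, Prg2 of eosinophils (-0.62) and the immunoglobulin segment Igkv4-59 (-1.14) fell. The sulfatase Sulf2 (0.88) and the segment Igkv4-56 rose, the latter with no counts in any mutant library. Als2cl, Pim1, Mrc2, Arntl and Muc13 passed in this and each of the other 7 fits that left out 1 library.

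The response was also read in each genotype and compared between them. In WT 3 genes passed (0.0182%): Neat1 (log2 -1.24), Mid1 (-3.89) and Adamts10 (-0.80), all lower. These WT calls rest on 2 untreated libraries, 1 of which is WT untreated replicate 1. In mutants 4 passed (0.0243%): Als2cl (1.65), Arntl (0.79) and Pim1 (0.75) rose and the segment Igkv8-24 (-2.02) fell. The test of the difference itself called 1 gene (0.00607%), Igkv8-24, with a log2 difference of -1.65 between the mutant and the WT response (adjusted p = 0.0103 in edgeR). Without WT untreated replicate 2 that test called 169 genes, and without the other libraries, 1 at a time, between 1 and 7; the call of Igkv8-24 itself was lost without either treated WT library. Igkv8-24 was at 168.5, 145.2, 131.3 and 161.6 CPM untreated and at 118.2, 124.5, 40.04 and 32.1 CPM after doxorubicin, lowest in the treated mutant libraries. Neat1, a long noncoding RNA of nuclear paraspeckles, was at 190.3, 197.4, 214.1 and 189.8 CPM untreated and at 87.3, 76.7, 134.5 and 181.4 CPM after doxorubicin. The difference of its responses did not pass the adjusted test. Across all 16475 genes the WT and the mutant log2 changes, which share no library, correlated at r = 0.042, and 57.0% had the same sign. For the 10218 more abundant genes, whose log2 CPM averaged 3 or more, the values were 0.086 and 58.7%. Without WT untreated replicate 1 they were 0.03 and 57.3% over 17253 genes, and 0.058 and 59.4% for the 10179 more abundant ones. For the 1662 genes at an unadjusted p under 0.05 in WT by edgeR's test, r was 0.074 and 67.3% had the same sign. For the 733 such genes in mutants the values were 0.204 and 71.9%. Genes chosen in the same way without WT untreated replicate 1 gave -0.008 and 67.5% for WT, and 0.049 and 71.3% for mutants. Genes are not independent replicates, so no p is given for these likenesses.

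**Figure D5:**
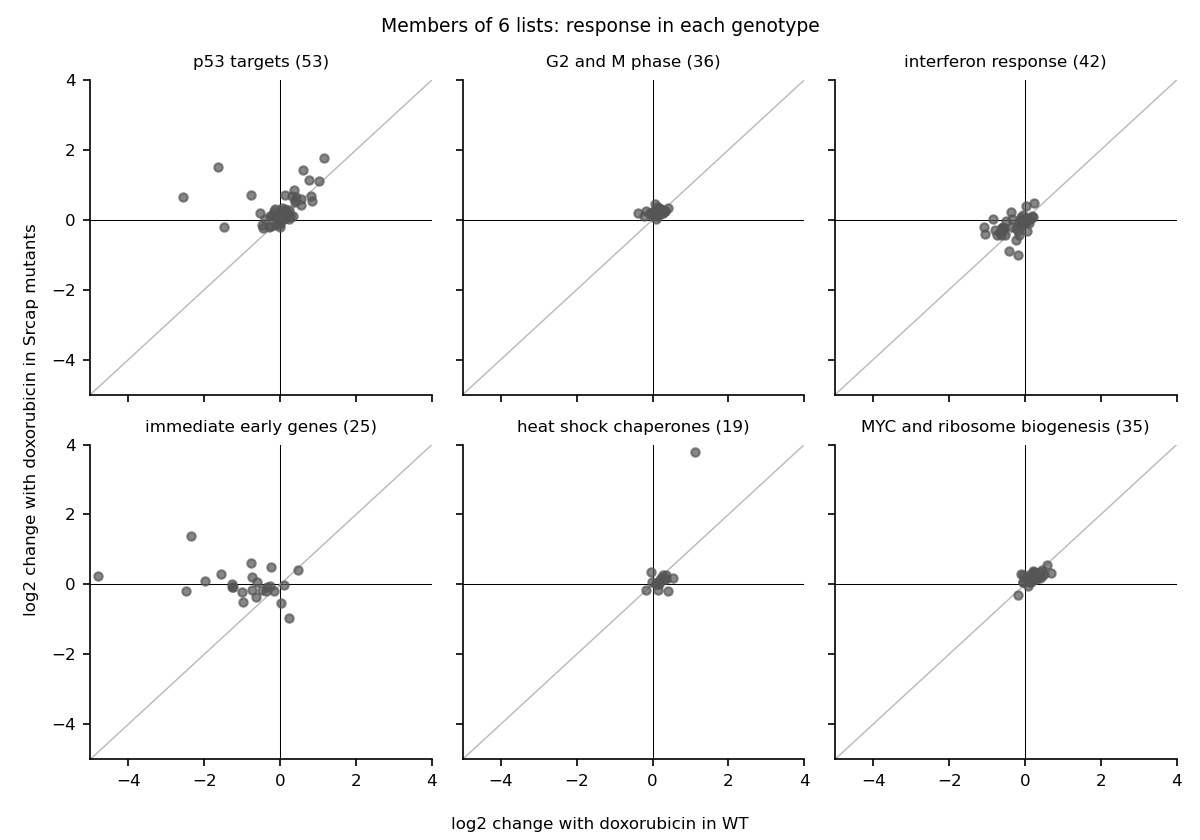
Log2 change with doxorubicin in WT (x axis) and in Srcap mutants (y axis) for each tested member of 6 gene lists, 1 point per gene, with the number of genes in brackets and a grey line of equal change. The MYC and ribosome biogenesis genes lie near the line with 29 of 35 higher in both genotypes, while immediate early genes spread to the left of it, for which the medians are -0.73 (WT) and -0.07 (mutants).

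The change was also described by genomic span, the distance from a gene's start to its end, with the genes cut into 5 bins of like size. In the bin with the shortest span (up to 3.92 kb) the median log2 change was -0.044, with 62 genes higher and 147 lower at an unadjusted p under 0.05. In the bin with the longest span (57.85 kb or more) it was -0.002, with 194 higher and 149 lower. Without WT untreated replicate 1 the medians of those bins were -0.052 and 0.002. These are counts across genes, with no test.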

How the data were processed

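RNA was measured by stranded mRNA sequencing of sorted HSPCs, and 4 doxorubicin and 4 untreated libraries entered the comparison. The values used are whole-number read counts per gene, as deposited by the authors. Per the file headers, they were made with featureCounts 2.0.1 on GENCODE M28 annotation, whose coordinates match GRCm39, and the submitters' processing notes name FastQC, STAR, Subread and both mm10 and mm39. Their order and the version of STAR are not stated in the labels or headers. Of 55414 gene IDs, 52081 matched a symbol, and those hold 99.86% of the counts.

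Counts were tested with edgeR 4.0.16 in R 4.3.3, with TMM scaling and filterByExpr (minimum count 10, minimum total 15). The robust quasi-likelihood fit had genotype and doxorubicin as terms, and p-values were adjusted by Benjamini-Hochberg over 16475 genes at a threshold of 0.05. A fit of group means gave each genotype's response and their difference. The script was tested on simulated data. Alternatives were DESeq2 1.42.0, DESeq2-style size factors within edgeR (RLE), no count filter, all 16 HSPC libraries, no genotype covariate, a replicate block, voom quality weights in limma 3.58.1, removal of immunoglobulin and granulocyte genes, and leaving out each of the 8 libraries. Shares of counts were compared by exact permutation tests, two-sided.

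The members and the gene lists were chosen with earlier results of these data known. Named genes were all called genes, the 10 per direction with the largest change or smallest p, up to 4 members per list by smallest p, and a fixed set of p53 targets, drug targets and Srcap. Further genes, among them mt-Rnr1, the clock genes beside Arntl and the genes called only in 1 genotype or without 1 library, were named after their values were seen. Promoters came from RefSeq on GRCm38.p6 and carry that build's coordinates. The 8 libraries held 35635255 to 59810048 counts. No pairing of libraries across treatments is known, and the main design has no block. By replicate number the correlation of deviations was -0.058 in WT and -0.041 in mutants. With 2 libraries per group that is 1 comparison per genotype, which cannot show whether libraries were paired. In the headers, replicate 2 of each doxorubicin group carries the number 3.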

Additional observations from a re-analysis of the deposited data

Results flagged for a closer look

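In 60 groups of 4 libraries examined for a single library far from the others, 6 passed the 95% critical value of Dixon's test for 4 samples. Chance gives about 1 in 20 such groups. WT untreated replicate 1 was the low library for Als2cl among the untreated ones (13.23 CPM), and Als2cl was higher in each treated library than in any untreated one. The same library was the low one for Gm19590 (102.4 CPM) and the high one for the share of neutrophil and granulocyte genes (3.017%). WT untreated replicate 2 was the high library for Pim1 (201.8 CPM). Mutant replicate 2 was the low library for Muc13 both untreated (102.6 CPM) and after doxorubicin (153.6 CPM). The response of Igkv8-24 differed between genotypes by edgeR's test of the difference, at a log2 of -1.65 for mutant minus WT (adjusted p = 0.0103), and both treated mutant libraries were below all others.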

How the results depend on the processing

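The effect of depth was not tested. Some named genes, such as Mrc2, rested on few counts, and each group had 2 libraries. Als2cl was called in all 16 other settings, Pim1 in 15, and Mrc2, Arntl and Muc13 in 14 each. Ccng1 and Myc were called in 6 of 16 and Mdn1 in 5. The numbers of genes higher and lower were 90 and 90 with DESeq2, 188 and 477 with no count filter, 33 and 16 with voom quality weights, 1 and 2 with all 16 HSPC libraries, and 2 and 1 with no genotype covariate. All 13 called genes were among those called by DESeq2. With the replicate block 6 were higher and 4 lower, and 5 and 3 of these were shared with the reported calls, while Tspan13, Myc, Ccng1, Mdn1 and Gm19590 were lost. The numbers mark no known pairing. Leaving out 1 library at a time gave 5 to 22 higher and 1 to 22 lower. Genes whose response differed between genotypes numbered 13 with DESeq2, 67 with no count filter, 0 with all 16 libraries in edgeR (550 at an unadjusted p under 0.05) and 1 to 169 when 1 library was left out, the highest without WT untreated replicate 2. Changes of sign were found for 5 genes that were not called. Trp53inp1 was at log2 -0.01 with voom quality weights and at -0.03 to 0.06 over the leave-outs. Pmaip1 was at 0.001 with all 16 libraries, 0.13 with voom quality weights and -0.43 to 0.31 over the leave-outs. Srcap was at -0.01 with no genotype covariate, -0.02 with voom quality weights and -0.08 to 0.09 over the leave-outs. Mdm2 ranged from -0.12 to 0.01 and Fas from -0.75 to 0.57 over the leave-outs. The cause of these differences was not tested.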

Other observations

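In the fit of all 8 libraries, edgeR called no gene in the lists of the lineages below; without WT untreated replicate 1 it called Ms4a1, Fcmr and Prg2. Of 31 genes of erythroid cells and heme synthesis 24 were lower, with a median log2 change of -0.12, which was -0.40 in WT and -0.02 in mutants. Without WT untreated replicate 1 the count was 18 of 31 and the median -0.06, and without mutant doxorubicin replicate 2 the median was -0.48. Of 24 T and NK cell genes 19 were lower (median -0.24), and Cd3e, the invariant chain of the T cell receptor complex, stayed between 0.353 and 1.26 CPM in all 8 libraries. Of 15 tested genes of eosinophils, basophils and mast cells 14 were lower (median -0.44, but -0.73 without mutant doxorubicin replicate 2 and -0.28 without mutant doxorubicin replicate 1). B cell identity genes were split, with 13 of 25 higher and a median of 0.09, which was -0.05 without mutant untreated replicate 1 and -0.01 without mutant doxorubicin replicate 1.

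Among metabolic lists, 11 of 17 glycolysis genes and 13 of 22 genes of sterol synthesis were higher, with medians of 0.03 and 0.06. The glycolysis median was -0.04 without WT untreated replicate 2 and 0.11 without WT untreated replicate 1, the ends of its range when 1 library was left out. The 25 genes of the oxidative stress response had a median of -0.03, with 11 higher, and a median of 0.04 without WT untreated replicate 1. Of the 11 enzymes that reduce or cycle doxorubicin 9 were lower, with a median of -0.20, and edgeR called 0 of them, with 0 at an unadjusted p under 0.05. In the BCL2 family 8 of 16 tested genes were higher, and the 3 pore-forming or related effectors had a median of 0.18.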
